A study of Homo sapiens with 8 samples.

Results

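The genes described here are protein-coding genes on the long arm of human chromosome 9 that start at or beyond 69 Mb on GRCh38. The counts table held 544 such genes. Of these, 98 had fewer than 10 counts summed over the 8 libraries, among them 60 with 0 counts, and 9 were set apart by name (RPL12, RPL35, RPL7A, COL5A1, COL15A1, COL27A1, HSPA5, KLF4 and ALDH1A1). This left 437 members of the 60617 genes in the table. The last member ended at 138124624. The region was selected on its RNA levels in sgKDM6A against the other groups, so every sgKDM6A value below is a description: no p is given for it, and where counts of edgeR's calls are printed nothing is read from them.

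RNA was sequenced from HEK293T, a transformed human embryonic kidney line, in 4 groups of 2 libraries each. WT was the unedited line, and the other groups were derivatives labelled sgKDM5C (KDM5C knockout), sgKDM6A (KDM6A knockout) and sgKMT2B (KMT2B knockout). KDM6A is a histone demethylase that acts on H3K27, KDM5C is one that acts on H3K4, and KMT2B is a methyltransferase for H3K4. The labels do not say whether a knockout line was a clone or a pool, nor whether its 2 libraries came from separate cultures, so p-values measure only the spread between these libraries, which may be technical. All groups share the HEK293T background and were grown alike in serum-containing medium.

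The output of a gene generally scales with the number of template copies in the cell, and feedback on RNA or protein can buffer single genes. Immortalised lines such as HEK293T carry rearranged chromosome sets that vary between sublines, and in such cells neighbouring genes along a chromosome arm can differ together between lines. No DNA measurement was analysed here. In bulk RNA, fewer cells that express a gene and less RNA per cell cannot be told apart. The long arm of chromosome 9 holds the kinase gene ABL1, the growth regulators TSC1, PTCH1 and NOTCH1, and many genes for housekeeping functions.

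Levels are given in CPM (counts per 1000000). The sequences before 3 start sites are shown because these members mark the range of the results: among members that reached 5 CPM, ROR2 was lowest in sgKDM6A relative to the other groups, TLE1 lay at the median, and GAS1 was among the highest. Each is the 250 bases before the RefSeq start on GRCh38.p14, on the strand of the gene, at chr9:91950229-91950478 (ROR2, minus strand), chr9:81689548-81689797 (TLE1, minus strand) and chr9:86947507-86947756 (GAS1, minus strand), with the GC box GGGCGG in capitals on either strand.
ROR2: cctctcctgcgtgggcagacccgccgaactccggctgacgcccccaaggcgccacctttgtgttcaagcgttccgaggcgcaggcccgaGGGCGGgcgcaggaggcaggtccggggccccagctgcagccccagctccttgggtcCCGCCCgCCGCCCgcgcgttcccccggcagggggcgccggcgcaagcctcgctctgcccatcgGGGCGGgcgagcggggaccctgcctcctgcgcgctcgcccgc
TLE1: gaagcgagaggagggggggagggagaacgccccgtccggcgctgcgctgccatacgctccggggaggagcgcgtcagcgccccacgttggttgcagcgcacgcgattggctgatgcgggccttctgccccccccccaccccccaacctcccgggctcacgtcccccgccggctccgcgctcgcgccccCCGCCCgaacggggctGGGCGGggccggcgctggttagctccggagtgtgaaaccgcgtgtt
GAS1: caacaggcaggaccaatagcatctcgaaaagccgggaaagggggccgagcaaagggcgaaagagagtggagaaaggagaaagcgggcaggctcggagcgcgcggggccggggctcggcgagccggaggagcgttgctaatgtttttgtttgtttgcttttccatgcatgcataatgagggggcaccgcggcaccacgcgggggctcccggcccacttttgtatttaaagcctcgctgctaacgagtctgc
ROR2 had 4 GC boxes and 32 CpG dinucleotides in this window, TLE1 had 2 and 33, and GAS1 had 0 and 21. A RefSeq promoter was matched to 361 of the 437 members, with a median of 23 CpG dinucleotides and a GC box in 68.4%. Among protein-coding genes of other chromosomes whose mean level reached 5 CPM, 8236 promoters had a median of 22 and a GC box in 70.6%, against 42.3% of all 27305 promoters in the table. A match is a string of letters and not a known site.

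The libraries held 15868353 (WT replicate 2) to 27591724 counts (sgKDM6A replicate 2), and levels are given as CPM, counts per 1000000 scaled with TMM factors. KDM6A itself, on chromosome X, was at 10.9 CPM in sgKDM6A and at 51.9 to 61.3 CPM as a mean of each other group. KDM5C was at 321 CPM in sgKDM5C against group means of 383 to 456 CPM, and KMT2B at 69.3 CPM in sgKMT2B against 120 to 141 CPM. Of 8 genes that mark HEK293T cells, NEFM had 0 counts in sgKDM5C and sgKDM6A. Its mean was 0.039 CPM in sgKMT2B and 5.65 CPM in WT. The other genes of the 8 were detected in every library. KRT8, a keratin, was at 5.38 CPM in sgKDM6A against group means of 51.2 to 256 CPM. Of 10 markers of blood, vessel, fibroblast, liver and pigment cells, 8 stayed under 1 CPM in every library, and the summed level of all 10 lay between 1.57 and 3.24 CPM over the group means. The part of any other cell type in the results was not tested.

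Chromosome 9 genes beyond 69 Mb were higher in sgKDM6A than in every other group. They held 3.30% and 3.24% of all counts in the 2 sgKDM6A libraries. In the 6 other libraries the share was 2.40% and 2.44% in WT, 2.54% and 2.49% in sgKDM5C, and 2.51% and 2.43% in sgKMT2B. The lowest sgKDM6A library therefore lay above the highest of the others, and these shares need no scaling factor. Over the 328 members whose mean of the 8 libraries reached 5 CPM, the median gene in sgKDM6A was 1.32 and 1.31 times the mean of the 6 other libraries, in replicates 1 and 2. The same median lay between 0.979 and 1.01 in each of the 6 others, which are themselves part of that mean and so centre on it. About 9 in every 10 of these members stood above that mean in sgKDM6A (89.3% and 88.7%), against 45.4% to 52.1% in the other libraries.

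**Figure D1:**
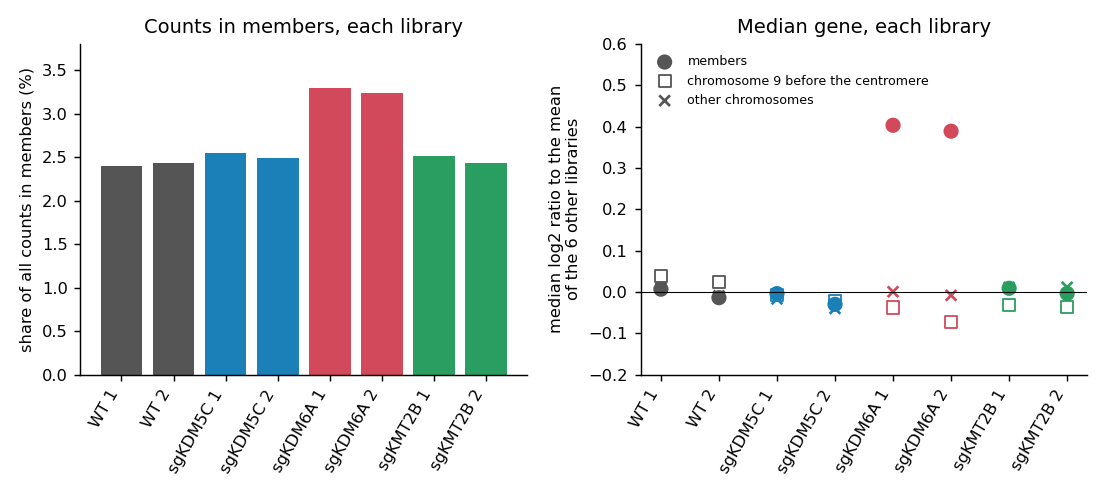
Left, the share of all counts (%) that fell in the 437 members in each library, as bars; right, the median over genes of the log2 ratio to the mean of the 6 libraries outside sgKDM6A, for 328 members (circles), 111 genes of chromosome 9 before the centromere (squares) and 10243 genes of other chromosomes (crosses), all with a mean of 5 CPM or more. The members' medians of 0.40 and 0.39 in sgKDM6A stand apart from the 6 others, which lie between -0.03 and 0.01.

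Of the 437 members, 403 passed the low-count filter and entered the fit over 17527 genes. Against the mean of WT, sgKDM5C and sgKMT2B, the median log2 change of these 403 in sgKDM6A was 0.41, a fold of 1.32, with quartiles of 0.18 and 0.58, and 336 of 403 were above 0. The median over all genes tested was 0.01. Against each group by itself the median was 0.37 for WT, 0.39 for sgKDM5C and 0.43 for sgKMT2B. Both sgKDM6A libraries lay above all 6 others in 213 members and below all 6 in 18, and 172 overlapped, where 10.6% and 11.6% of all genes tested lay above and below. edgeR called 233 of 403 members higher (12.1% of all genes tested) and 24 lower (12.1%) against the mean of the other groups. Against WT it called 186 higher (12.6%) and 27 lower (14.6%), against sgKDM5C 191 higher (8.86%) and 25 lower (10.9%), and against sgKMT2B 205 higher (12.4%) and 18 lower (12.5%). These comparisons share the sgKDM6A libraries and chose the region, so nothing is read from the counts. The same holds for the counts below from fits that leave out 1 library, which 411 to 413 members entered. Shares called over all genes are not given for those fits, so a drop is not shown to be particular to the members. Without sgKDM6A replicate 1, 142 members were called higher against the mean of the other groups and 123 against WT, with medians of 0.39 and 0.35. Against sgKDM5C the members called higher dropped to 114 without sgKDM6A replicate 1 and to 119 without sgKDM5C replicate 2. Against sgKMT2B they dropped to 128 without sgKDM6A replicate 1 and to 108 without sgKMT2B replicate 2. The members called lower dropped to 16 against WT without either sgKDM6A library, to 16 against sgKDM5C without sgKDM6A replicate 2, and to 14 against the mean of the others without sgKDM6A replicate 1.

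The shift against the mean of the other groups was even along the region. In 7 windows of 10 Mb from 69 Mb on, the median over members with at least 5 CPM lay between 0.39 (79 to 89 Mb, 20 members) and 0.48 (99 to 109 Mb, 24 members). In the window from 99 to 109 Mb all 24 members were above 0. Against WT by itself the window medians ranged more widely, from 0.35 (119 to 129 Mb) to 0.56 (99 to 109 Mb). The last window, 129 to 139 Mb, held 106 members with a median of 0.43, of which 68 lay above all 6 other libraries and 7 below (13.0% and 12.9% of all genes tested at that level). Over the same windows, the median of sgKDM5C against WT ran from -0.05 to 0.05 and that of sgKMT2B against WT from -0.16 to 0.21.

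**Figure D2:**
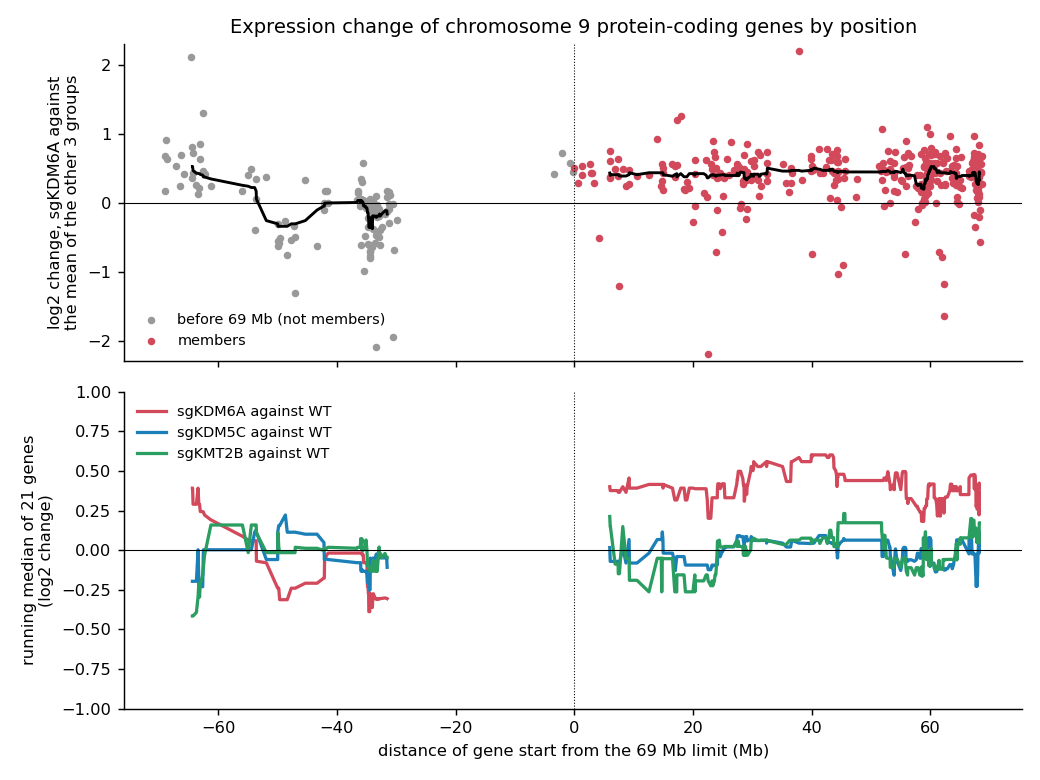
Upper, log2 change in sgKDM6A against the mean of the other 3 groups for each protein-coding gene of chromosome 9 whose mean reached 5 CPM, by the distance of its start from the 69 Mb limit in Mb (grey, genes before it; red, members; values beyond 2.2 drawn at 2.2; black line, running median of 21 genes). Lower, the same running median for each knockout against WT; right of the limit the sgKDM6A line stays above the other 2, while left of it the lines meet and cross.

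Before the limit the chromosome did not move as 1 block. Among genes whose mean reached 5 CPM, 25 in the first 15 Mb had a median log2 change of 0.46 in sgKDM6A against the mean of the other groups, and all 25 were above 0. The 86 genes between 15 Mb and the centromere had a median of -0.15, and 24 of them were above 0. The cut at 15 Mb was not planned, so this split is a description only. Taken whole, the 149 tested protein-coding genes before the centromere, of any level, had a median of -0.02, and 70 were above 0. In the first 15 Mb sgKMT2B had a median of -0.34 against WT. There the sgKDM6A median was 0.39 against WT and 0.71 against sgKMT2B. Only 4 such genes lay between the centromere and 69 Mb, with a median of 0.51. Their median was 0.80 against WT, 0.48 against sgKMT2B and -0.04 against sgKDM5C, and sgKDM5C itself had 0.73 against WT. Nearest the limit on the outside, FAM122A was at 9.97 CPM in sgKDM6A and 4.74, 9.98 and 8.22 CPM in WT, sgKDM5C and sgKMT2B, PIP5K1B was at 4.08 and 3.54 CPM in sgKDM6A, 3.64 and 3.96 CPM in WT, 3.39 and 4.20 CPM in sgKDM5C and 0.482 and 0.197 CPM in sgKMT2B, and TMEM252 had 0 counts. Just inside, PRKACG had 0 counts and was no member. The limit at 69 Mb is that of the rule, and with so few expressed genes before it the edge of the shift was not located. At the count limit, C9orf129, FBP2 and FAM166A had 10 summed counts and were members, and C9orf84, TEX53 and LCNL1 had 9 and were not.

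Over whole chromosomes, protein-coding genes with at least 5 CPM had medians between -0.30 (chromosome 21) and 0.35 (chromosome 9, 450 genes on both arms) in sgKDM6A against the mean of the other groups. Chromosome 13 stood at 0.27 and chromosome 18 at 0.22. For chromosome 13 the median was 0.11 against WT and 0.53 against sgKMT2B. For chromosome 18 it was 0.25 against WT, 0.22 against sgKDM5C and 0.19 against sgKMT2B, and for chromosome 21 -0.26, -0.31 and -0.34.

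By role, housekeeping genes lay close to the common shift. Of 42 members for chromatin, transcription and RNA processing, all tested, 35 lay above all 6 other libraries and 0 below, with a median log2 change of 0.46. Of all genes tested, 10.6% lay above and 11.6% below, the shares to set beside this and the counts of the other roles. The histone chaperone gene SET was at 889 and 840 CPM in sgKDM6A against 541 to 728 CPM in the others (median 624 CPM; log2 change 0.47, SE 0.07). ANP32B, a related acidic nuclear protein, was at 288 and 283 CPM against 187 to 270 CPM. HNRNPK, an RNA-binding protein, was at 1018 and 1035 CPM against 832 to 980 CPM, a smaller difference (log2 change 0.18, SE 0.06). Its libraries did not overlap, yet its change was nearer to 0 than to the members' median.

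Secretory and mitochondrial genes had slightly larger medians. Of 43 tested members of the secretory pathway, glycosylation and lysosome list, 30 lay above all 6 others and 0 below (median 0.50). SURF4, a cargo receptor of the endoplasmic reticulum, was at 404 and 339 CPM against 248 to 330 CPM. SEC61B, a subunit of the protein-conducting channel, was at 86.1 and 78.7 CPM against 51 to 61.9 CPM (log2 change 0.53, SE 0.09). ATP6V1G1, a subunit of the vacuolar proton pump, was at 132 and 135 CPM against 75.3 to 93.9 CPM (0.63, SE 0.09). Of 27 tested mitochondrial members, 18 lay above and 1 below (median 0.49). NDUFA8, a subunit of respiratory complex I, was at 130 and 128 CPM against 76.3 to 92.1 CPM, and MRPL41, a protein of the mitochondrial ribosome, at 147 and 139 CPM against 74.9 to 124 CPM. PTGES2, a prostaglandin E synthase, was at 271 and 255 CPM against 150 to 185 CPM. In all 4 of SEC61B, ATP6V1G1, NDUFA8 and MRPL41 both sgKDM6A libraries were the highest of the 8.

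Of 16 tested ubiquitin and proteasome members, 11 lay above all 6 others and 0 below (median 0.44). PSMB7, a catalytic subunit of the proteasome, was at 303 and 301 CPM against 198 to 241 CPM. FBXW5, a substrate adaptor of ubiquitin ligases, was at 174 and 151 CPM against 124 to 193 CPM, and its log2 change was 0.01 (SE 0.08), which turned to -0.01 without sgKDM5C replicate 2 and to -0.09 without sgKDM6A replicate 1, and was 0.11 without sgKDM6A replicate 2. UCK1, a uridine kinase in this list, overlapped WT, and its log2 change of 0.26 was 0.10 without sgKDM6A replicate 1 and 0.41 without replicate 2. Cytoskeleton, adhesion and cilium genes gave 18 of 28 above and 1 below (median 0.47). TUBB4B, a beta-tubulin, had the highest level per kilobase of exon among the members, 337 CPM per kb. It was at 939 and 898 CPM in sgKDM6A against 454 to 779 CPM. GOLM1, a Golgi membrane protein, was at 204 and 184 CPM against 109 to 147 CPM, and CTNNAL1, related to alpha-catenin, at 107 and 117 CPM against 74.5 to 106 CPM. Small-molecule metabolism gave 14 of 27 above and 3 below (median 0.43). TXN, thioredoxin, was at 403 and 480 CPM against 212 to 288 CPM (0.78, SE 0.09). It was second in level per kilobase (266 CPM per kb), before CKS2 (208 CPM per kb), a cell cycle protein at 150 and 187 CPM that overlapped WT (173 and 139 CPM). PSAT1, an enzyme of serine synthesis, was at 559 and 453 CPM and overlapped the others, which ran from 313 to 620 CPM. Its log2 change of 0.27 was 0.11 without sgKDM6A replicate 1 and 0.42 without replicate 2.

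Transcription factor genes gave 16 of 38 tested members above all 6 others and 2 below (median 0.39), with log2 changes from -2.50 (NR5A1) to 3.01 (RORB). TLE1, a corepressor, was at 130 and 124 CPM in sgKDM6A, 113 and 129 CPM in WT, 80.7 and 80.2 CPM in sgKDM5C, and 89.7 and 90.1 CPM in sgKMT2B. The sgKDM6A libraries of TLE1 overlapped WT only. BARX1, a homeobox factor, was at 87 and 74.5 CPM in sgKDM6A against 86.4 to 158 CPM. EGFL7, a secreted protein that had been put in this list, had a log2 change of 0.18, which was 0.06 without sgKDM6A replicate 1 and 0.29 without replicate 2. Kinases and phosphatase subunits gave 7 of 20 above and 1 below (median 0.31). PTPA, an activator of protein phosphatase 2A, was at 346 and 306 CPM against 178 to 230 CPM. PKN3, a protein kinase, was at 156 and 145 CPM and overlapped WT (151 and 142 CPM). PHPT1, a histidine phosphatase, was at 192 and 170 CPM within a range of 94.3 to 215 CPM, and its log2 change of 0.17 was 0.08 without sgKDM6A replicate 1, 0.26 without replicate 2 and 0.11 without WT replicate 2. Receptors, tumour suppressors and signalling genes gave 14 of 32 above and 3 below (median 0.35). GPR107, a membrane protein of the Golgi, was at 163 and 179 CPM against 124 to 155 CPM. RAPGEF1, an exchange factor for RAP1, was at 195 and 184 CPM against 121 to 153 CPM, and TSC1, a brake on mTOR signalling, at 64.9 and 64.3 CPM against 43.4 to 51.7 CPM. PTCH1, the hedgehog receptor, was at 50.4 and 47 CPM against 24.9 to 28.7 CPM, and NOTCH1 was at 49.6 and 57.1 CPM within 45.7 to 95.8 CPM. TSC1, PTCH1 and NOTCH1 were chosen after their values were seen. The 152 tested members in none of the lists gave 65 above and 8 below (median 0.36). The lists share members, and whether they differ from each other was not tested.

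**Figure D3:**
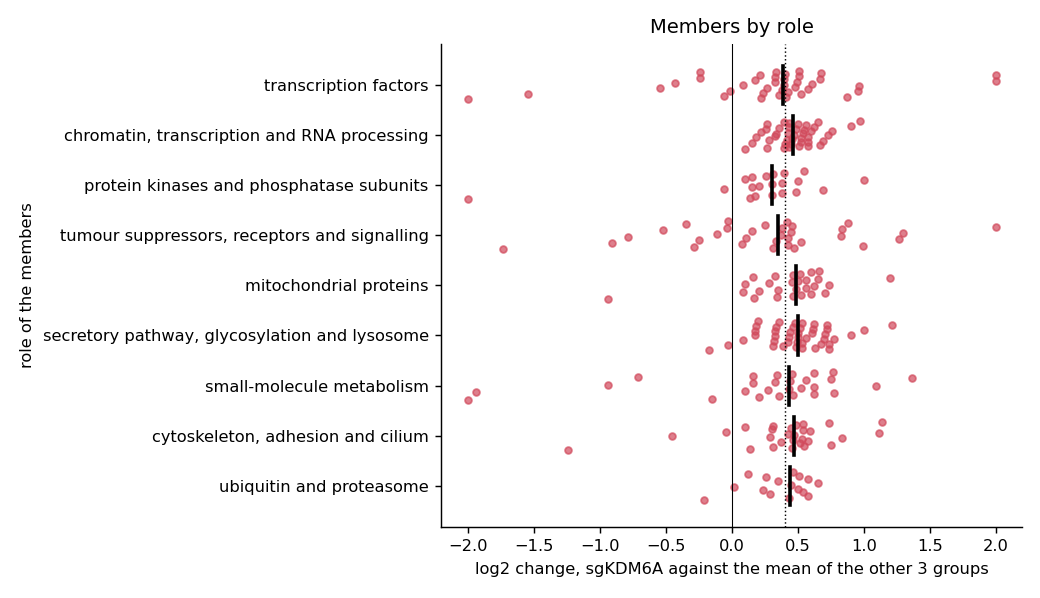
Log2 change in sgKDM6A against the mean of the other 3 groups for each tested member, by role (points, values beyond 2 drawn at 2; black bars, the median of each role; dotted line, the median of all 403 tested members, 0.41). Medians run from 0.31 for kinases and phosphatase subunits to 0.50 for the secretory list.

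Against the mean of the other groups, most members of at least 5 CPM followed the shift. The limit was met where sgKDM6A or the mean of the other libraries reached 5 CPM. Of 340 such members, 270 (79.4%) had a log2 change nearer to 0.41 than to 0. A further 48 (14.1%) were near 0, within 0.20 of it on either side, and 22 (6.47%) were lower than that. These classes use the change against the mean of the other 3 groups, so 1 outlying group can decide them. BSPRY counted as with the shift, at -0.90 against WT, -0.20 against sgKDM5C and 2.87 against sgKMT2B. C5 counted as lower, at 0.27 against WT, 0.15 against sgKMT2B and -2.78 against sgKDM5C. Among the 340, 207 lay above all 6 other libraries and 12 below, where 13.0% and 12.9% of all genes tested at that level did. Of the 340, 10 passed only through sgKDM6A, all with the shift, and 7 only through the other libraries, all lower, so these 17 had to differ. Over the 328 members whose mean of all 8 libraries reached 5 CPM, 261 (79.6%) had the shift, 48 (14.6%) were near 0 and 19 (5.79%) were lower, and 201 lay above and 10 below all others (12.6% and 12.8% of all genes tested with such a mean). Members close to the median show the size of the shift against the mean of the other groups in single genes. Against WT by itself their log2 changes were smaller than the members' median of 0.37. They were 0.07 for TLE1, 0.11 for WNK2, 0.26 for ZBTB43 and 0.27 for SWI5. SWI5, a recombination factor, was at 29.3 and 25.5 CPM against 18.2 to 24.9 CPM. ZBTB43, a zinc finger protein, was at 25.3 and 25.8 CPM against 18 to 23.3 CPM, and in both the groups did not overlap. WNK2, a kinase, was at 217 and 235 CPM and overlapped WT at 221 and 198 CPM.

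Some members went against the shift. Taken over all levels, genes of other chromosomes spread more widely about their own median than the members did. Over 328 members whose mean of all libraries reached 5 CPM, the middle 50% spanned 0.30 on the log2 scale, against 0.38 over 10243 genes of other chromosomes. Of the 328, 37 (11.3%) lay more than 0.41 below their own median of 0.42, and 12.2% of genes of other chromosomes lay as far below theirs. Above the median by the same amount were 14 members (4.27%) and 7.63% of the others. The log2 ratio between the 2 sgKDM6A libraries had an SD of 0.19 over the 328 members.

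**Figure D4:**
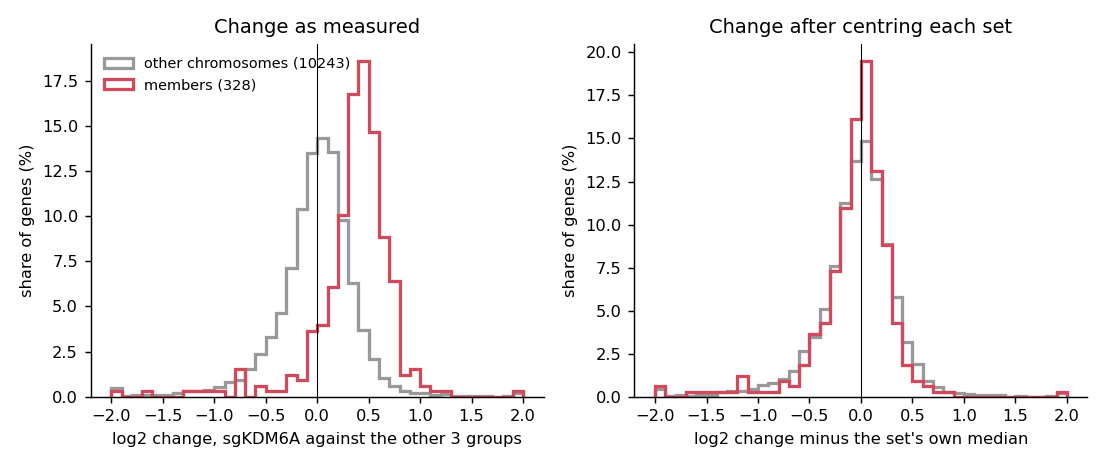
Share of genes (%) by log2 change in sgKDM6A against the mean of the other 3 groups, for 328 members (red) and 10243 protein-coding genes of other chromosomes (grey), all with a mean of 5 CPM or more (values beyond 2 are in the end bins). Left, as measured, where the members' peak lies near 0.4; right, after subtracting each set's own median, where the outlines nearly coincide.

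Of the 12 members of at least 5 CPM that lay below all 6 other libraries, the lowest relative to them was ROR2, the receptor tyrosine kinase for WNT5A (ENSG00000169071, 91563091 to 91950162, minus strand). It was at 4.68 and 5.36 CPM in sgKDM6A, 34.2 and 39.1 CPM in WT, 35.9 and 32.7 CPM in sgKDM5C, and 27.3 and 30.9 CPM in sgKMT2B. All 6 other libraries were thus more than 5 times as high as either sgKDM6A library (fitted fold 6.60 lower, log2 change -2.72, SE 0.14). PTGES, the inducible prostaglandin E synthase, was at 1.47 and 0.965 CPM against 3.33 to 7.11 CPM (log2 change -2.05, SE 0.24). PTGES, PLPP7, RGS3 and SARDH reached 5 CPM only in the other libraries. PLPP7 was at 3.33 and 2.75 CPM against 6.65 to 15.1 CPM, and FAM78A at 15.1 and 16.3 CPM against 28.6 to 45.5 CPM. The start sites of PLPP7 and FAM78A, on opposite strands, lie 12.9 kb apart. Beside them NUP214, a nuclear pore protein, had a log2 change of 0.58 and PRRC2B one of 0.26.

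LAMC3, a laminin chain of basement membranes, was at 51 and 45.7 CPM against 76.6 to 91.2 CPM, with a log2 change of -0.80 (SE 0.09). OLFML2A, a secreted matrix protein, was at 10.6 and 12.7 CPM against 15.1 to 24.4 CPM, and FRRS1L, a partner of AMPA receptors, at 13.6 and 11.5 CPM against 16.8 to 25.9 CPM. RGS3, which turns off G protein signalling, was at 2.74 and 2.97 CPM against 3.90 to 8.04 CPM. For SARDH, the mitochondrial sarcosine dehydrogenase, and AKNA, an AT-hook protein, the gap was narrow: 2.26 and 3.36 CPM against a lowest other value of 3.44 CPM, and 8.32 and 7.04 CPM against 8.82 CPM, both in sgKDM5C. ASS1, the argininosuccinate synthase of arginine synthesis, was at 182 and 150 CPM in sgKDM6A. It was at 319 and 393 CPM in WT, 258 and 239 CPM in sgKDM5C, and 224 and 233 CPM in sgKMT2B (log2 change -0.71, SE 0.10). NOXA1, an activator of NADPH oxidase, was at 7.14 and 6.36 CPM against 7.43 to 13 CPM; it completes the 12 and was named after its values were seen. Of 24 neighbours of these 12 with at least 5 CPM, counted once per gene and side, 16 had a change nearer to 0.41 than to 0. Of the 340 members, 79.4% had such a change. Among the 24, 2 were PLPP7 and FAM78A, each beside the other, which belong to the 12 and so could not have it. ZNF618 was counted for both RGS3 and AKNA. For SARDH neither neighbour had such a change, with 0.02 for SLC2A6 and -0.03 for VAV2.

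At the other end stood 10 members, the highest of those with at least 5 CPM whose sgKDM6A libraries lay above all others. Of these, ZNF462, TNC, CFAP157 and IER5L reached 5 CPM only in sgKDM6A and so had to be high there. Members of lower level had larger values, such as RORB (3.01). ZNF462, a zinc finger protein of chromatin, was at 21.2 and 19.4 CPM in sgKDM6A, 6.86 and 8.71 CPM in WT, 3.97 and 3.22 CPM in sgKDM5C, and 0.964 and 0.828 CPM in sgKMT2B. Its 4 groups did not overlap, and the fitted log2 change of 2.80 (SE 0.15) was 1.39 against WT by itself. TNC, the matrix protein tenascin C, was at 9.59 and 10.1 CPM against 0.437 to 6.39 CPM. GAS1, a membrane protein that takes part in hedgehog signalling, was at 77.9 and 88.1 CPM against 25.5 to 49.5 CPM (log2 change 1.26, SE 0.09). ISCA1, which assembles iron-sulphur clusters, was at 57.3 and 44.4 CPM against 15.4 to 28.2 CPM. SLC27A4, a fatty acid transporter, was at 282 and 237 CPM against 96.3 to 143 CPM (1.09, SE 0.10). SNAPC4, a subunit of the complex that starts small nuclear RNA genes, was at 95.1 and 86.7 CPM against 37.7 to 57.2 CPM, and TTF1, a factor of ribosomal RNA transcription, at 31.9 and 31 CPM against 11 to 21.9 CPM. CFAP157 (log2 change 1.11), B3GNT10 (1.07) and IER5L (0.97) were at 12.2 CPM or less in every library. They share exon bases with genes on the other strand, as ZNF462 and TNC do. So do HNRNPK, PTPA, PKN3, UCK1, TUBB4B and WNK2 among the members named above. The strand setting of the counting was not given, and whether reads of a partner entered these counts was not tested.

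**Figure D5:**
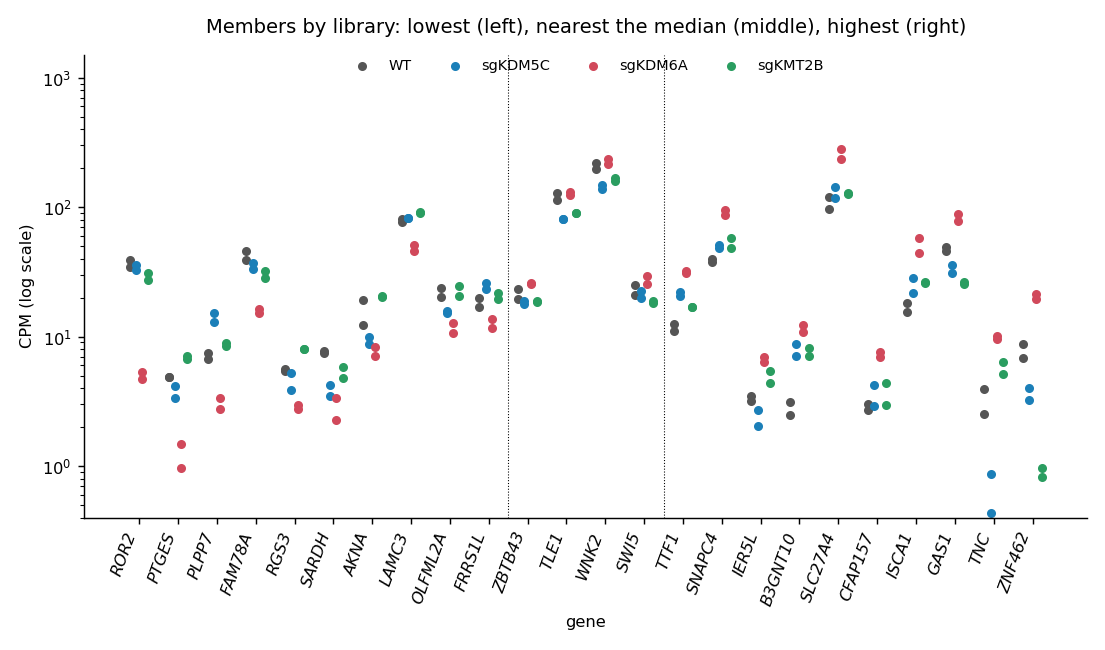
Level in CPM (log axis) of 24 members in each of the 8 libraries, coloured by group: left, the 10 members of at least 5 CPM lowest in sgKDM6A among those below all other libraries; middle, 4 of at least 20 CPM nearest the members' median; right, the 10 of at least 5 CPM highest among those above all others. The sgKDM6A points lie below all others on the left and above all others on the right; in the middle they overlap other groups for TLE1 and WNK2.

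The members' median change differed a little by properties that the rule did not use. The 340 members of at least 5 CPM were split by GC content of the longest transcript. The 114 members at 33.5% to 45.5% GC had a median log2 change of 0.47, the 112 at 45.6% to 56.9% had 0.43, and the 114 at 57.1% to 72.7% had 0.34. Genes of other chromosomes split at the same limits had medians of 0.07, 0.01 and -0.07, and the members stood above them at each GC content. The fall with GC content was thus not particular to the members. By level, 53 of 113 members of at most 29.6 CPM lay above all 6 others (median 0.40), against 88 of 114 members from 77.1 CPM up (median 0.45). Among genes of other chromosomes at these levels, 10.05% and 12.6% lay above all 6 others. Of the 12 members below all 6 others, 9 were among the 113 of lowest level, where 13.0% of genes of other chromosomes lay below. Members with 613 to 3646 bases of exon had a median of 0.46 and those with 6354 to 22217 bases 0.38. Genes of other chromosomes split at these limits had medians of 0.03 and 0.01. Where depth, GC content or level moved with a member's change, their part in it was not tested.

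Long non-coding and antisense genes that start in the region are no members. The 54 of them that were tested had a median log2 change of 0.43 in sgKDM6A against the mean of the other groups, with 37 of 54 above 0. Their median was 0.41 against WT and 0.14 against sgKDM5C, and in sgKDM5C against WT it was 0.52, unlike that of the members (0.01). Of the genes set apart by name, RPL35 had a log2 change of 0.47, RPL7A 0.32 and RPL12 0.13, genes of the large ribosomal subunit, while COL5A1, a fibrillar collagen, had -1.53 and COL27A1 -0.27. For RPL12 the change was -0.02 against WT, 0.40 against sgKDM5C and -0.004 against sgKMT2B. HSPA5 and KLF4 were at 0.10 and 0.11, values that average opposite signs. They were at -0.58 and -0.67 against WT, 0.55 and 0.55 against sgKDM5C, and 0.34 and 0.44 against sgKMT2B. COL15A1 had 77 summed counts. ALDH1A1, a retinal dehydrogenase, had 75 counts in WT, 25 in sgKDM5C, 26 in sgKMT2B and 1 in sgKDM6A.

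The other groups did not share the shift. In comparisons without sgKDM6A libraries, which did not choose the region, the medians of the 403 tested members were 0.01 for sgKDM5C against WT, 0.00 for sgKMT2B against WT and 0.02 for sgKDM5C against sgKMT2B. edgeR's quasi-likelihood test with Benjamini-Hochberg adjustment over 17527 genes called 49 members higher (11.1% of all genes tested; 12.2% of members) and 60 lower (11.5%; 14.9%) in sgKDM5C against WT. It called 52 higher (13.7%; 12.9%) and 56 lower (14.5%; 13.9%) in sgKMT2B against WT. Between sgKDM5C and sgKMT2B it called 46 higher (11.6%; 11.4%) and 37 lower (10.5%; 9.18%). These shares, from all 8 libraries, lie near those of all genes. Fits that leave out 1 library held 411 to 413 members. Shares over all genes are not given for them, so nothing is read from their counts. Without sgKDM5C replicate 1, 25 members were called higher and 25 lower in sgKDM5C against WT, 32 were called lower there without sgKDM5C replicate 2, and without sgKMT2B replicate 1, 19 and 30 were called in sgKMT2B against WT (33 higher without sgKMT2B replicate 2). Between sgKDM5C and sgKMT2B the calls dropped to 30 higher and 21 lower without sgKDM5C replicate 1, 24 lower without sgKDM5C replicate 2, 26 and 17 without sgKMT2B replicate 1, and 30 and 19 without sgKMT2B replicate 2.

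Single members did change in these comparisons. C5, a complement component, rose in sgKDM5C to 13.2 and 13.8 CPM, from 0.909 and 2.53 CPM in WT (log2 change 3.05, SE 0.40; edgeR adjusted p = 0.000267), and its sgKDM6A libraries were at 2.38 and 1.57 CPM. GRIN1, a subunit of NMDA receptors that shares exon bases with LRRC26, was at 2.69 and 2.99 CPM in WT. It rose in sgKDM5C to 9.72 and 7.79 CPM (edgeR adjusted p = 0.000765) and fell in sgKMT2B to 0.803 and 1.18 CPM (edgeR adjusted p = 0.00208). B3GNT10 and DOLK, the dolichol kinase of glycosylation, rose in both sgKDM5C (1.51 and 1.34) and sgKMT2B (1.46 and 1.24, log2 changes against WT; edgeR adjusted p = 0.000369 to 0.00116). SH2D3C, a signalling adaptor, fell in sgKDM5C by 2.33 and in sgKMT2B by 2.26 on the log2 scale (edgeR adjusted p = 0.00152 and 0.00111), from 6.53 and 10.3 CPM in WT. These 2 comparisons share the WT libraries. In sgKDM6A against WT the changes had the same direction, 2.05 for B3GNT10, 1.86 for DOLK and -2.60 for SH2D3C. For these genes WT thus stood apart from every knockout group.

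ZNF462, which was highest in sgKDM6A, fell in sgKDM5C (log2 change -1.10, SE 0.21, edgeR adjusted p = 0.00252) and in sgKMT2B (-3.10, SE 0.25, edgeR adjusted p = 1.95e-06). BSPRY fell in sgKMT2B from 11.8 and 12.2 to 0.763 and 0.985 CPM (-3.77, SE 0.24, edgeR adjusted p = 2.74e-07), the lowest adjusted p among the genes named for these comparisons. NTNG2, a netrin-related adhesion protein, fell there too (-2.62, SE 0.34, edgeR adjusted p = 0.000106). KLF9, a glucocorticoid-responsive factor, fell in sgKDM5C from 70.6 and 54.9 to 27.3 and 34.5 CPM (edgeR adjusted p = 0.00157), and was at 50.3 and 63.1 CPM in sgKDM6A. SARDH fell in sgKDM5C (-0.98, SE 0.25, edgeR adjusted p = 0.0121), a call lost without sgKDM5C replicate 2 (edgeR adjusted p = 0.0766). ZNF79 rose in sgKMT2B by 1.31 (SE 0.18, edgeR adjusted p = 0.000213), and CEL, the bile salt-stimulated lipase, by 3.08 (SE 0.36, edgeR adjusted p = 5.05e-05). Against WT, ZNF79 was also higher in sgKDM5C (1.04) and in sgKDM6A (1.05). CEL has a near-identical pseudogene nearby and is uncertain.

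Between sgKDM5C and sgKMT2B, GRIN1 (3.13), BSPRY (3.07), C5 (2.92) and NTNG2 (2.17) were higher in sgKDM5C on the log2 scale (edgeR adjusted p = 1.36e-06 to 0.000441). TNC was lower in sgKDM5C, at 0.437 and 0.870 CPM against 6.39 and 5.16 CPM (log2 change -3.14, SE 0.33, edgeR adjusted p = 1.79e-05). FGD3, an exchange factor for CDC42, was lower by a log2 change of -1.38 (SE 0.20, edgeR adjusted p = 0.00034), and AKNA by -1.13 (SE 0.20, edgeR adjusted p = 0.00118). CEL was lower by -1.11 (edgeR adjusted p = 0.0162), a call lost without sgKDM5C replicate 1 (0.121) or sgKMT2B replicate 1 (0.117).

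The rest of the members were low. Of the 403 tested, 63 did not reach 5 CPM in sgKDM6A or in the mean of the other libraries. Of these, 6 lay above and 6 below all other libraries, where 10.6% and 11.6% of all genes tested, at any level, did. Nothing is read from these counts. PRRX2, named after its values were seen, had 0 counts in sgKDM6A and 45 in the other libraries, and its fitted change, the lowest of the tested members, depends on the prior count and is not given. A further 34 members had 10 to 57 summed counts (median 24.5) and were not tested. Their summed level was 4.435 CPM in sgKDM6A, 3.94 CPM in WT, 4.51 CPM in sgKDM5C and 4.596 CPM in sgKMT2B, and the sum over these 34 did not show the shift. Before TMM scaling, a count of 3 in a library corresponds to 0.109 to 0.189 CPM, for counting error only.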

How the data were processed

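Poly(A) RNA of 8 libraries was sequenced in read pairs, per the labels' protocols. The authors deposited raw read counts per Ensembl gene, made with STAR and HTSeq 0.11.2 on GRCh38, per the submitters' processing notes. Their annotation release was not given in the sources used here, nor was the strand setting. Of 437 members, 122 share exon bases with a gene on the other strand. GENCODE v29 (GRCh38) gave position, type and length for 58542 of 60617 genes.

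Counts of all 8 libraries were fitted with edgeR 4.0.16 in R 4.3.3 (glmQLFit, glmQLFTest, TMM factors, filterByExpr, 1 coefficient per group, 4 residual degrees of freedom), tested on simulated data. P-values were adjusted by Benjamini-Hochberg over 17527 genes and called under 0.05. CPM is scaled by TMM. The SE printed with a log2 change is the size of the change divided by the square root of edgeR's F statistic. For sgKDM6A changes it is a description and no test. DESeq2 1.42.0 was an alternative. Each library was counted as 1 replicate; replicates differed by more than sampling noise (chi-square per degree of freedom 7.88 to 15.8).

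Members, lists and tests were chosen with earlier results of these data known. Named genes are the 10 members furthest against the direction of the shift and the 10 furthest along it, among those of at least 5 CPM that did not overlap other libraries, the 4 of at least 20 CPM nearest the median, up to 4 called members per direction in each other comparison with 5 CPM in the higher group, the 3 of highest level per kb in each role and among the 437, those at the limits of the rule, the targeted genes and the genes set apart by name. Values of the members nearest the 69 Mb limit are not reported here.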

Additional observations from a re-analysis of the deposited data

How the results depend on the processing

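Every median of the members in sgKDM6A stayed above 0 under relative log expression factors, scaling from genes off chromosome 9, no filter, a minimum mean CPM of 1, DESeq2 and a replicate block, and each lay within 0.0135, the SD between replicate medians, except with no filter, where the median was 0.38 against sgKDM5C and 0.41 against sgKMT2B. Leaving out 1 library gave medians of 0.35 to 0.40 against WT, 0.37 to 0.42 against sgKDM5C, 0.39 to 0.44 against sgKMT2B and 0.39 to 0.41 against the mean of the others. These fits held 411 to 413 members. Shares called over all genes are not given for them, so nothing is read from their counts. The members called higher and lower then ran from 123 to 183 and 16 to 26 against WT, 114 to 212 and 16 to 29 against sgKDM5C, 108 to 224 and 15 to 21 against sgKMT2B, and 142 to 243 and 14 to 25 against the mean of the others. They ran from 25 to 53 and 25 to 54 in sgKDM5C against WT, 19 to 50 and 30 to 59 in sgKMT2B against WT, and 26 to 51 and 17 to 52 between sgKDM5C and sgKMT2B. Of the named genes, FBXW5 turned from 0.01 to -0.01 without sgKDM5C replicate 2 and to -0.089 without sgKDM6A replicate 1, and was 0.114 without sgKDM6A replicate 2. The replicate block called 246 members higher and 24 lower against the mean of the others and left no count of calls changed by over 1.5 times. Deviations of libraries with equal replicate numbers correlated at 0.08 to 0.18 between knockout groups over 17527 genes. With WT the correlations were -0.02 to 0.01. Whether equal replicate numbers share a batch was not tested. What depth limits was not tested for members of fewer than 5 CPM.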
